A study of Gossypium hirsutum with 6 samples.

Results

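Wide domains of histone H3 lysine 27 trimethylation (H3K27me3) were examined in leaves of Gossypium hirsutum TM-1, the allotetraploid upland cotton cultivar whose genome joins an A and a D subgenome. A wide domain was an H3K27me3 replicate 1 peak of 8000 bp or more on chromosomes A01 to A13 or D01 to D13 that a second list of broad peaks covered over at least 50% of its length. There were 878 such domains among 20749 H3K27me3 replicate 1 peaks on the 26 chromosomes, and the whole list, scaffolds included, held 23427 peaks. The members were thus chosen by their width and by their coverage in the second broad list, and both values are given only as a description.

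The study carried out ChIP-seq on micrococcal nuclease-digested chromatin from untreated TM-1 leaves at 20 days, with 6 libraries in 3 groups of 2 (H3K4me3, H3K27me3 and input without antibody). Of these, 4 peak lists, 1 for each antibody library, were used, and the input libraries were not analysed here. The lists hold positions only and do not show the depth behind a peak, the libraries' read totals were not used here, and nothing in the labels says whether the 2 libraries of a mark came from separate plants. All values describe whole leaves, in which a domain present in some cells and a domain present in all cells cannot be told apart.

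Labels and names went against each other in both lists of the second replicates. The list used by the rule as second broad list belongs to a sample labelled H3K4me3 replicate 2, but was deposited under an H3K27me3 name. The other, called second narrow list, belongs to a sample labelled H3K27me3 replicate 2, but was deposited under an H3K4me3 name. In the replicate 1 lists, labels and names gave the same mark. The second broad list removed no domain, since 0 of the replicate 1 peaks of 8000 bp or more failed the overlap, so that the same 878 domains were obtained with and without it. Values of the H3K4me3 replicate 1 list and of the second narrow list are given apart.

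H3K27me3 is placed by Polycomb repressive complex 2 and is known in plants for silenced developmental and tissue-specific genes, on which it often spreads over whole gene bodies and their surroundings. H3K4me3 typically marks the 5′ part of transcribed genes. Regions under both marks in a bulk assay may carry them on the same nucleosomes, on different alleles, or in different cells.

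The domains were few but long. They made up 4.23% of the H3K27me3 replicate 1 peaks on the chromosomes and 21.4% of their bases, 10.2 of 47.8 Mb. Their median width was 10340 bp, with quartiles of 8958 and 12589 bp. Just inside the width threshold lay peaks of 8006 bp on A09 (64993012 to 65001017), 8008 bp on D10 (50584406 to 50592413) and 8013 bp on D03 (17800238 to 17808250). Just outside it lay peaks of 7995 bp on D11 (35500453 to 35508447), 7994 bp on D13 (1389946 to 1397939) and 7993 bp on D06 (4620203 to 4628195). Positions are counted from 1 in the TM-1 assembly the authors used, and genes are not named because its annotation was not used here.

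The second broad list covered the domains over a median of 96.6% of their length, and over 90% or more in 730 domains (83.1%). No domain came near the 50% limit. The lowest coverage was 67.6% on A07 (75237852 to 75247552), 69.1% on D08 (8293841 to 8303936) and 70.5% on A02 (15643042 to 15651308). The width itself was less constant between the lists. A single peak of the second broad list overlapped 581 domains, 2 peaks overlapped 232, and 3 or more overlapped 65. In 675 domains (76.9%) one of these peaks was itself 8000 bp or wider. In the other direction, 680 of the 796 second-list peaks of 8000 bp or more (85.4%) overlapped a wide domain, and all 796 were covered over at least 50% by H3K27me3 replicate 1.

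Widths reached farther up on D chromosomes. Medians were alike, with 10180 bp for 338 A domains and 10437 bp for 540 D domains, while 17559 bp was the 95th percentile for A and 22424 bp for D. Of the A domains, 5 (1.48%) were 20000 bp or wider, and of the D domains 40 (7.41%). No A domain reached 30000 bp, which 4 D domains did. The 0 of 338 A domains allows a share of up to 1.09% by the exact 95% interval, which is above the D share of 0.741%. These width values are a description, since width chose the members.

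The widest domain of all lay on D05 (55445876 to 55484068) and was 38193 bp wide. A single peak of 37667 bp of the second broad list covered it over 98.4%, and it held 7 H3K4me3 replicate 1 peaks over 9.90% of its bases, the highest share among the 6 widest of D. The next was on D08 (1722372 to 1754609), with 32238 bp and 5 H3K4me3 replicate 1 peaks, and the nearest peak of the second narrow list lay 223 bp outside it. Of the 6 widest D domains, 3 lay on D11. The first of them (63334042 to 63364869, 30828 bp) held 1 peak of each narrow list. The others (61263211 to 61293284, 30074 bp, and 62284729 to 62314019, 29291 bp) held 2 and 3 H3K4me3 replicate 1 peaks and none of the second narrow list. The remaining one, on D02 (66944787 to 66974220, 29434 bp), lay 0.323 Mb from the chromosome end.

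The widest A domains were shorter than each of these 6. They lay on A06 (94351565 to 94374423, 22859 bp), A10 (543913 to 566682, 22770 bp), A01 (5803547 to 5824929, 21383 bp), A07 (75076255 to 75097226, 20972 bp), A04 (2076107 to 2096294, 20188 bp) and A12 (86524070 to 86543599, 19530 bp). Each held between 1 and 4 H3K4me3 replicate 1 peaks and none of the second narrow list. The A04 domain was split among 3 peaks of the second broad list, the widest of them 8960 bp, whereas single peaks of 21684, 23073, 20675 and 19572 bp covered those on A06, A10, A01 and A12.

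Wide domains were more numerous on D than on A chromosomes. D held 540 (61.5%) and A 338, a ratio of 1.60, although the D chromosomes were shorter, with 774.1 against 1160 Mb between first and last peaks. Per Mb there were 0.698 domains on D and 0.291 on A, a ratio of 2.39. They covered 0.837% of the D and 0.322% of the A length. When each D chromosome was set against its A homoeologue, the mean of 13 pairs was 41.5 domains on D and 26 on A, a difference of 15.5 ± 18.2 (SD over pairs), and D held more in 11 pairs (two-sided exact permutation of signs, p = 0.00195, adjusted p = 0.00335 over 12 tests). The density was higher on D in 13 of 13 pairs, by 0.389 ± 0.332 per Mb (exact permutation p = 0.000244, the smallest the test can give, adjusted p = 0.000488). H3K27me3 replicate 1 peaks of any width were also more numerous on the shorter D chromosomes, with 11368 against 9381 on A. A higher density on D was thus not particular to wide domains. Chromosomes are not biological replicates, and these tests describe how the peaks of 1 library were spread over chromosomes.

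The D surplus was uneven between pairs. D11 had the most domains with 103, followed by D05 with 89 and D10 with 81. These 3 chromosomes together held 273 of the 540 D domains (50.6%). They also held the most H3K27me3 replicate 1 peaks of any width on D, with 1335, 1514 and 1121 of 11368. Their homoeologues A11, A05 and A10 held 63, 44 and 29. Per Mb, pair 10 had the largest D to A ratio with 4.44, and pair 7 the smallest with 1.25. Numbers were higher on A only in pair 3, with 22 on A03 and 20 on D03, and in pair 7, with 25 on A07 and 22 on D07. The fewest were 13 on A06 and 18 on D13, and density was also lowest there within each subgenome, with 0.126 and 0.297 per Mb. Chromosomes rich in domains on A tended to be rich on D (Pearson r = 0.90, Spearman rho = 0.80 over 13 pairs), but r was 0.71 in the 11 pairs left without the 2 farthest from the A median. The points of this relation share 1 library. It was not computed for H3K27me3 peaks of any width. Of those, A11, A05 and A10 also held the most on A, with 1171, 1130 and 924.

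**Figure D1:**
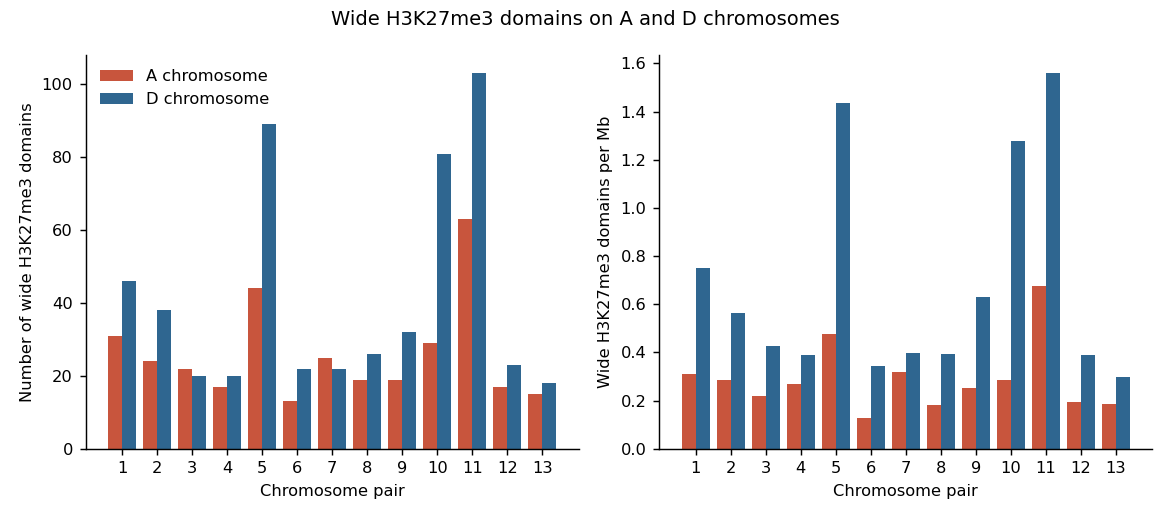
Number (left) and number per Mb (right) of wide H3K27me3 domains on each A (red) and D (blue) chromosome, by chromosome pair, with chromosome length taken from the first to the last listed peak. D11, D05 and D10 stand above all others with 103, 89 and 81 domains, and the density is higher on D in 13 of 13 pairs. H3K27me3 peaks of any width, not shown, are also denser on D as a whole.

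D chromosomes also held more H3K27me3 peaks of any width, 11368 against 9381. Relative to these, wide domains were 4.75% of the D and 3.60% of the A peaks. Over pairs, the share was higher on D in 8 of 13, by 0.857 ± 1.32 percentage points (exact permutation p = 0.0249, adjusted p = 0.0299). The largest shares were 7.72% on D11 and 7.23% on D10, and the A chromosome with the largest was A11 with 5.38%. This difference was not past the threshold without any one of pairs 1, 5, 6, 9, 10 or 11 and was 0.587 without pair 10 (exact permutation, adjusted p = 0.0598).

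Wide domains lay toward chromosome ends. Of the 878, 573 (65.3%, exact 95% interval 62.0 to 68.4) lay in the outer 10% of length at either end, and 67 (7.63%) in the middle 40%. The median distance to the nearer end was 5.40 Mb on A and 4.42 Mb on D. As percent of chromosome length the order was reversed, with 5.7% on A and 7.1% on the shorter D chromosomes. H3K27me3 peaks under 8000 bp with the same overlap by the second broad list (16348 peaks, called narrower peaks below) also lay near ends, but less so. Of these, 46.4% lay in the outer 10% and 15.2% in the middle 40%. Over the 26 chromosomes, the median distance to the nearer end averaged 7.29% of chromosome length for wide domains and 10.9% for narrower peaks, a difference of −3.59 ± 3.34 (lower for wide domains in 23 of 26, exact sign-flip permutation p = 2.21e-05, adjusted p = 5.31e-05).

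The position pattern held in both subgenomes, with 69.2% of A and 62.8% of D domains in the outer 10%, against 52.8% and 41.2% of narrower peaks. The exceptions were A05 (median of 19.9% for domains and 15.6% for narrower peaks), A09 (12.7% and 12.1%) and D07 (19.9% and 16.5%). Next to the end itself, in the outermost 5% of length, lay 43.2% of A and 33.7% of D domains. Of the narrower peaks, 32.4% on A and 21.9% on D lay there. Within 5 Mb of an end, a stretch that makes up 13.4% of the length, lay 461 domains (52.5%) and 35.7% of the narrower peaks.

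**Figure D2:**
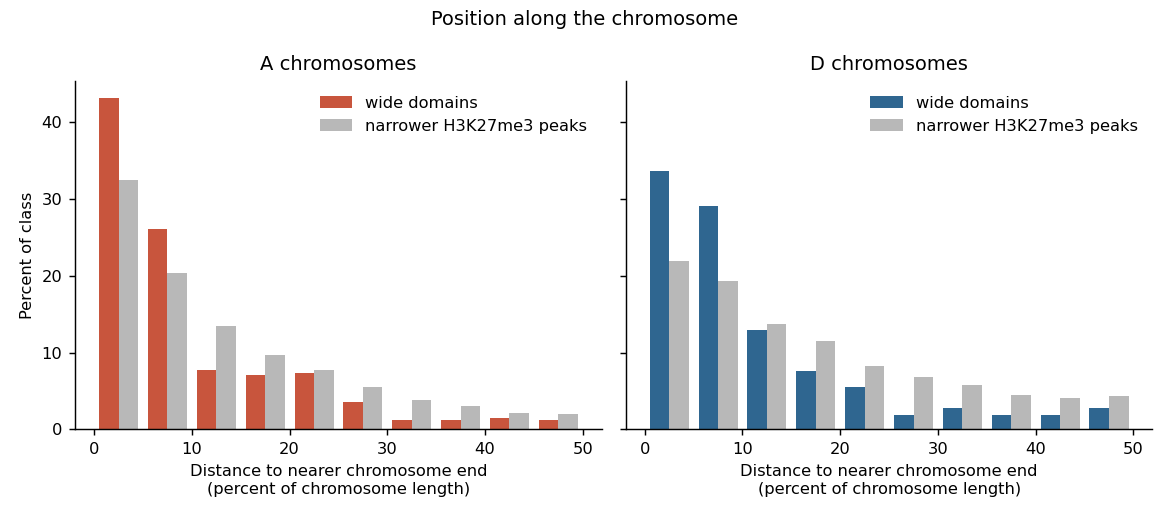
Share of wide H3K27me3 domains (red, A; blue, D) and of narrower H3K27me3 peaks (grey) by distance to the nearer chromosome end, in steps of 5% of chromosome length, where 50 is the middle. The first 2 steps hold 69.2% of A and 62.8% of D domains, against 52.8% and 41.2% of narrower peaks.

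H3K4me3 replicate 1 peaks were found inside most domains. At least 1 overlapped 657 of 878 domains (74.8%, 71.8 to 77.7), where an H3K4me3 replicate 1 peak overlapped 37.5% of all H3K27me3 replicate 1 peaks on the chromosomes. Wide peaks offer more room for an overlap, so shares of bases are used for comparisons. There were 292 domains with 1 such peak, 234 with 2, 86 with 3 and 45 with 4 or more. They were small against the domain. The 1220 H3K4me3 peaks concerned had a median width of 413 bp, and 96.0% of them lay wholly within the domain. They covered a median of 4.64% of a domain's bases.

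The second narrow list differed. Its peaks overlapped only 31 domains (3.53%, 2.41 to 4.97), where they overlapped 2.97% of all H3K27me3 replicate 1 peaks. Of these domains, 10 were on A and 21 on D. Following the label, 3.53% would be the share of wide domains met by a second H3K27me3 library, and following the name by a second H3K4me3 library. The list labelled H3K4me3 replicate 2 covered the domains over a median of 96.6% of their length. In the second narrow list, 89.8% of all peaks overlapped H3K4me3 replicate 1. By overlap, both second lists thus went with their deposited names, but whether labels or names are right was not tested. Neither narrow list reached into 220 domains. Of the 1220 H3K4me3 replicate 1 peaks at domains, 30 (2.46%, 1.67 to 3.49) overlapped a peak of the second narrow list. The same share was 5.89% at narrower H3K27me3 peaks and 52.9% over all 69877 H3K4me3 replicate 1 peaks. In the reverse direction, 35 of the 38 second-list peaks at domains (92.1%) overlapped an H3K4me3 replicate 1 peak, as did 89.8% of all 42643 in that list. The part that the length of each list and the depth behind it have in these shares was not tested.

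Within 5 kb outside, H3K4me3 replicate 1 was met at 338 domains (38.5%), and at 57.1% of all H3K27me3 replicate 1 peaks. For the second narrow list these values were 149 domains (17.0%) and 21.0% of all peaks. H3K4me3 replicate 1 lay inside but not within 5 kb of 400 domains, both inside and within 5 kb of 257, only within 5 kb of 81, and at neither place for 140. In all these counts, a peak across a domain edge was taken both as inside and as within 5 kb. The nearest H3K4me3 replicate 1 peak outside a domain was at a median of 7.34 kb and the nearest peak of the second narrow list at 19.7 kb.

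By bases, with flanks that leave out other wide domains but keep narrower H3K27me3 peaks, H3K4me3 replicate 1 was denser inside domains than beside them. Averaged over 26 chromosomes, it covered 5.85% of bases inside and 2.76% of the 5 kb flanks, a difference of 3.09 ± 1.51 percentage points that was positive in 26 of 26 chromosomes (exact permutation p = 2.98e-08, the smallest the test can give, adjusted p = 1.79e-07). The second narrow list went the other way, with 0.137% inside and 0.989% beside, a difference of −0.852 ± 0.658 that was negative in 23 of 26 (exact permutation p = 5.96e-07, adjusted p = 1.79e-06). Restricting H3K4me3 replicate 1 to peaks that overlap the second narrow list, which nearly restates that list, turned the replicate 1 difference to −0.859 (exact permutation, adjusted p = 9.66e-06) and left 3.19% of domains with a peak inside, and it is no separate check of either difference.

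Compared with narrower H3K27me3 peaks, the domains held less of both narrow lists per base. H3K4me3 replicate 1 covered 5.85% of bases in wide domains and 10.1% in narrower peaks, a difference of −4.26 ± 1.47 that was negative in 26 of 26 chromosomes (exact permutation p = 2.98e-08, adjusted p = 1.79e-07). For the second narrow list the values were 0.137% and 0.454%, a difference of −0.316 ± 0.191, negative in 23 of 26 (exact permutation p = 4.47e-07, adjusted p = 1.79e-06). These 2 differences kept their direction and stayed past the threshold under all alternatives run.

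**Figure D3:**
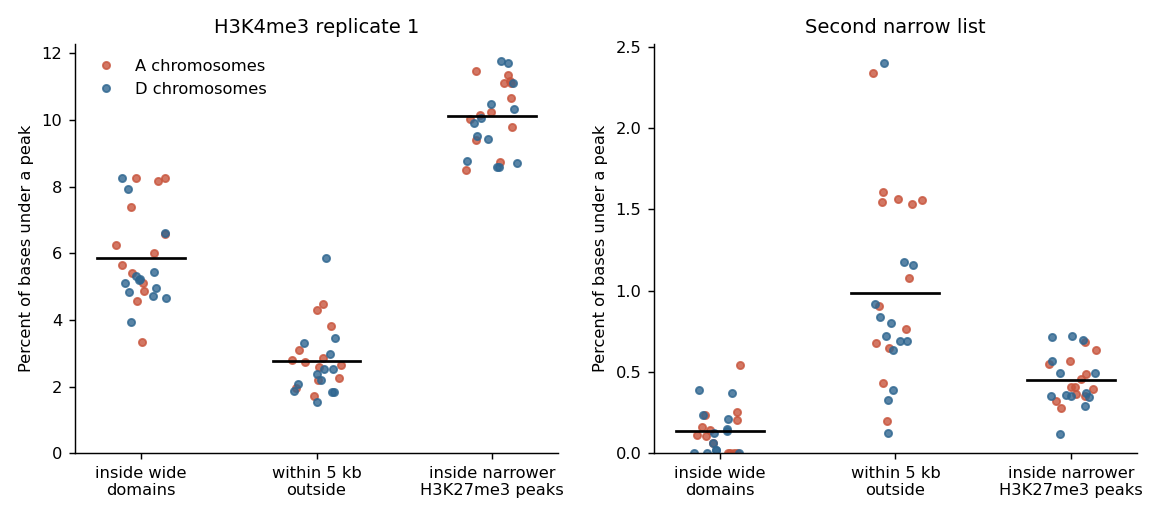
Percent of bases under H3K4me3 replicate 1 peaks (left) and second narrow list peaks (right) inside wide domains, within 5 kb outside them and inside narrower H3K27me3 peaks, with 1 point per chromosome (red, A; blue, D) and the mean as a line. Means are 5.85, 2.76 and 10.1% on the left and 0.137, 0.989 and 0.454% on the right, where the axis is shorter.

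The flanks of wide domains held slightly less of both lists than the flanks of narrower peaks. H3K4me3 replicate 1 covered 2.76% and 3.37% of flank bases, a difference of −0.601 ± 0.942, negative in 21 of 26 chromosomes (exact permutation p = 0.00325, adjusted p = 0.00487). The second narrow list covered 0.989% and 1.31%, a difference of −0.317 ± 0.531, negative in 19 of 26 (exact permutation p = 0.00635, adjusted p = 0.00847). Both depended on the processing. With 20 kb on either side, the first was 0.229 (exact permutation, adjusted p = 0.0917) and the second −0.110 (adjusted p = 0.213). The second also missed the threshold at 90% overlap, with merged peaks, at 12000 bp and with peaks of at least 500 bp, and it was 0.00075 (adjusted p = 0.995, exact permutation) when wide peaks of the second broad list replaced those of replicate 1.

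Around the edges, H3K4me3 replicate 1 covered 6.76% of bases 3 to 4 kb inside, 5.32% at 1 to 2 kb inside and 3.57% in the last kb. It was lowest in the first kb outside, with 1.95%, and between 2.50% and 4.52% from there to 20 kb. The second narrow list lay under 0.2% at each step inside. It covered 0.420% of the first kb outside and 1.31% of the next, and its highest value was 2.16% at 17 to 18 kb. Both lists thus had their lowest value outside a domain in the kb next to its edge.

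**Figure D4:**
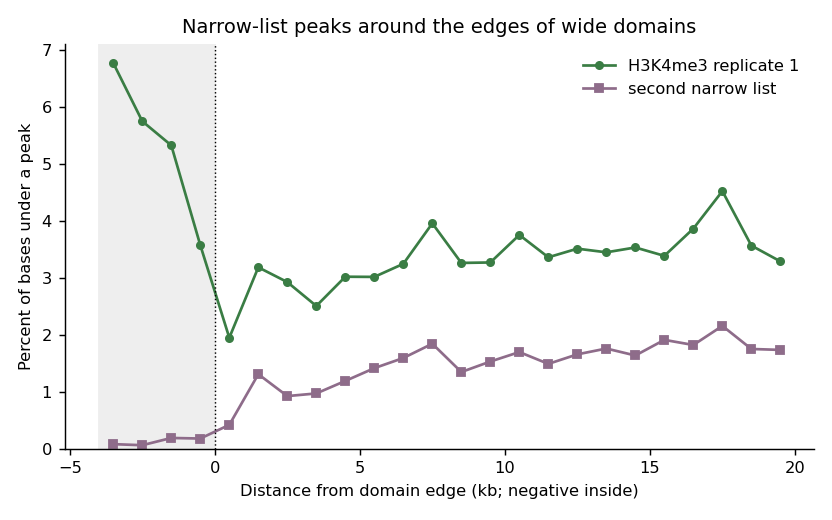
Percent of bases under H3K4me3 replicate 1 peaks (green circles) and second narrow list peaks (purple squares) in steps of 1 kb from the edges of wide domains, with negative distances inside (shaded). H3K4me3 replicate 1 goes from 6.76% inside to 1.95% in the first kb outside, and the second narrow list from 0.0814% to 0.420% over the same steps.

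The share of domains with H3K4me3 replicate 1 inside grew with width, from 69.7% of 399 domains of 8 to 10 kb to 92.5% (85.7 to 96.7) of 106 domains of 16 kb or more. The number of peaks per 10 kb did not grow, with 1.32 in the first class and 1.13 in the last, nor did the share of bases, with 6.16% and 5.28%. The second narrow list reached into 12, 6, 8 and 5 domains of the 4 classes, from the narrowest to the widest. In the class of 12 to 16 kb both replicate 1 values were lowest, with 0.992 peaks per 10 kb and 4.72% of bases. By the replicate 1 list alone, 77.2% of A and 73.3% of D domains held H3K4me3 replicate 1. Over pairs, the difference D minus A was −2.65 ± 12.7 percentage points and did not pass the threshold (exact permutation p = 0.462, adjusted p = 0.462).

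Single domains departed far from the typical share of bases. H3K4me3 replicate 1 covered 42.4% of a domain on D04 (7897254 to 7905365), 32.0% of one on D03 (7040594 to 7049721) and 22.4% of another on D04 (2998177 to 3007122). On A the highest were 39.0% on A08 (10362953 to 10373486), in 7 peaks, 29.7% on A05 (22004049 to 22014109) and 27.1% on A07 (17130973 to 17141555). None of these 6 domains held a peak of the second narrow list, and the second broad list covered each over 89.3% or more. A peak outside within 5 kb was listed only at the second D04 domain.

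For the second narrow list, the highest shares were 9.18% on A07 (20142666 to 20150781), 5.95% on A02 (6228860 to 6238899) and 5.70% on A10 (91146353 to 91156174). On D they were 8.17% on D09 (5529470 to 5538944), 5.68% on D01 (60320346 to 60329425) and 4.84% on D09 (44023125 to 44032066). H3K4me3 replicate 1 covered more of each of these 6 domains, from 10.7% on D09 (44023125 to 44032066) to 21.7% on A07 (20142666 to 20150781).

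Domains were closely spaced on D. The median distance from a domain to the nearest other domain was 54.7 kb on D and 210.2 kb on A. Within 100 kb lay the next domain for 326 D domains (60.4%) and 132 A domains (39.1%). At the other extreme, 15 D and 22 A domains had no other within 5000 kb. Per chromosome, medians ran from 24.1 kb on D10 and 25.9 kb on D11 to 901.2 kb on A06. Not all D chromosomes had close domains, with medians of 696.3 kb on D13 and 499.3 kb on D08. Over pairs, the median was lower on D in 12 of 13, but the mean difference of −100.8 ± 246.4 kb did not pass the threshold (exact permutation p = 0.17, adjusted p = 0.185). Pair 7 was the exception, with 812 kb on D07 and 249.2 kb on A07, and without it the difference was −156.1 kb (exact permutation, adjusted p = 0.000837). With any other single pair left out instead, the difference stayed short of the threshold (exact permutation, adjusted p from 0.192 to 0.357). As pair 7 is the only one against the direction, the run without it is no separate test. Since more domains per Mb leave less room between them, distance and density are not separate results.

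**Figure D5:**
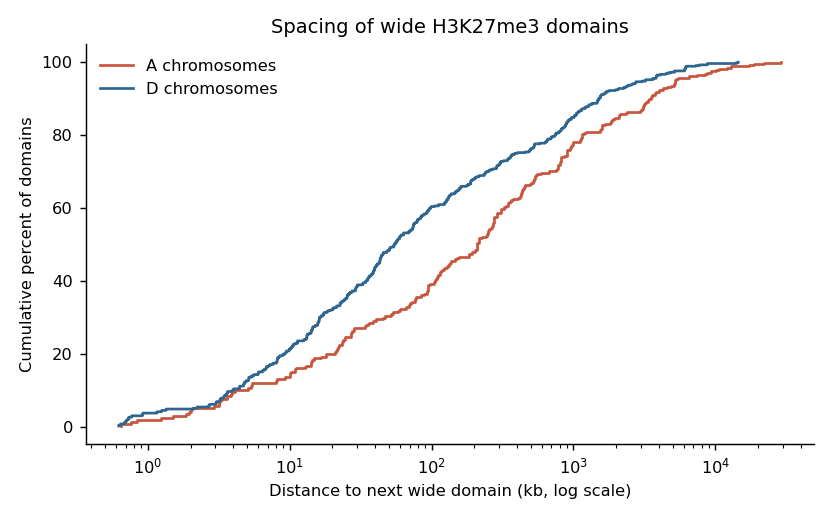
Cumulative share of wide H3K27me3 domains on A (red) and D (blue) chromosomes by distance to the nearest other domain, on a log axis in kb. The D curve reaches 60.4% at 100 kb, where the A curve is at 39.1%.

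Runs of 3 or more domains with gaps under 100 kb numbered 64 and held 284 domains. Of these, 46 runs with 220 domains were on D and 18 with 64 domains on A. Runs of 5 or more numbered 19, with 15 on D and 4 on A. The longest was on D10 (58950851 to 59776719), where 21 domains filled 34.3% of 825.9 kb. Of these, 17 held H3K4me3 replicate 1, with 30 peaks in all against 2 of the second narrow list. D11 held runs of 14 (60852174 to 61512628) and 12 domains (62872099 to 63478033), and the first of these had domains of 30074 and 28222 bp and no second-list peak. D01 had a run of 8 (4027334 to 4444423). On D05, 7 domains filled 59.5% of 182.3 kb (55301752 to 55484068), and the widest domain closed this run.

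The A runs of 5 were on A01 (5778095 to 5950510), A05 (21016624 to 21138072) and A11 (85873207 to 86118184 and 87404306 to 87566792), and they filled between 23.1% and 50.1% of their span. The run on A05 lay 21.0 Mb from the chromosome end, and the other 3 within 7.19 Mb. The most densely filled run of 5 or more was on D10 (60018160 to 60103386), with 5 domains over 69.4% of 85.2 kb.

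The median distance to the next domain differed between width classes, without falling at each step. It was 121.6 kb for domains of 8 to 10 kb, 130.1 kb at 10 to 12 kb, 60.0 kb at 12 to 16 kb and 23.2 kb at 16 kb or more. The last class was also 72.6% D, so that width and subgenome go together in these medians. The order is a description, as width chose the members. A further H3K27me3 peak of any width lay within 5 kb of 591 domains (67.3%). The same count was not made for narrower peaks, so whether wide domains differ in this was not tested.

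Some neighbours were separated by less than 1 kb. The closest pairs were on D05 (55353344 to 55364715 and 55365339 to 55373742, 623 bp apart, and 54548424 to 54557288 and 54557932 to 54567250, 643 bp apart), A03 (96785432 to 96794863 and 96795513 to 96804514, 649 bp) and D10 (59185942 to 59198310 and 59198994 to 59211626, 683 bp). On A07 (75057330 to 75075494 and 75076255 to 75097226) the gap was 760 bp, and on A06 (504700 to 516525 and 517363 to 529284) it was 837 bp. The second broad list ran across the whole gap of the A03 pair and of the second D05 pair. It left the first D05 gap and the A07 gap empty and covered 2.03% of the gap on A06 and 0.146% on D10. No narrow-list peak lay in any of these 6 gaps.

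The most isolated domains lay far from chromosome ends. On A12 (33678799 to 33689532) the next domain was 29188769 bp away, and on A02 (41478940 to 41487501) 22216189 bp. On D06 (40716268 to 40727552) it was 14505825 bp away, and on D01 (29230804 to 29239465) 14009886 bp. They lay between 36.7% and 49.7% of chromosome length from the nearer end. Each held 1 or 2 H3K4me3 replicate 1 peaks and none of the second narrow list, and another H3K27me3 replicate 1 peak lay 590 bp from the A12, 1673 bp from the A02 and 1144 bp from the D06 domain, but 245758 bp from that on D01.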

How the data were processed

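The deposited lists hold 3 columns (chromosome or scaffold, start, end), which are positions in bp and carry no score. The authors, by their methods, used fastp for trimming, Bowtie2 for alignment to a published TM-1 genome, Picard against duplicates and samtools against poorly mapped reads, and MACS2 for peaks, in broad mode for H3K27me3 and narrow mode for H3K4me3. Peak calling is described for the first libraries only, and how the lists of the second were made is not given in the sources used here. The MACS2 version and the use of input as control are not given in the sources used here. Broad mode joins neighbouring stretches, so domain width depends on it.

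Positions were analysed in Python 3.11.15 with numpy 2.4.6 and scipy 1.17.1, and plotted with matplotlib 3.10.9. Overlap meant at least 1 bp. Chromosome length was the span of all peaks in the 4 lists. Flank bases inside another member of the same class were left out. Intervals of shares are Clopper-Pearson (exact, 95%), take peaks as independent and hold counting error alone. Exact two-sided sign-flip permutation tests ran over 13 A/D pairs (5 tests) or 26 chromosomes (7 tests), with Benjamini-Hochberg adjustment over all 12 and a threshold of 0.05. The code was checked on simulated data. Alternatives changed the width, overlap, flank, lists, H3K4me3 peaks, scaffolds, merging and length, and left out each pair.

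The members and lists were chosen with earlier results of these data known. Regions named in each subgenome were the 6 widest domains, the 3 with the highest share of bases under each narrow list, the 3 closest pairs, the 2 most isolated, the runs with gaps under 100 kb, those nearest to the rule's thresholds, and the chromosomes with most and fewest domains. Of the runs of 3 or more, those of most domains are named and the others counted.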

Additional observations from a re-analysis of the deposited data

Results flagged for a closer look

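The list of H3K27me3 replicate 1 also held peaks on scaffolds outside the 26 chromosomes, which entered the comparisons only where scaffolds were added as an alternative. By the same rule, 121 of the 2678 peaks there (4.52%) were wide domains, near the share of 4.23% on the 26 chromosomes. Of these, 100 lay on scaffolds that name a chromosome and 21 on others. The widest was 37321 bp, and 83 of the 121 held an H3K4me3 replicate 1 peak, where 74.8% of the domains on the chromosomes held one. The input libraries were not analysed here.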

How the results depend on the processing

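The D surplus in number (7 to 31.5) and per Mb (0.146 to 0.911), both differences from narrower H3K27me3 peaks, the second-list difference between inside and flank, and the end distance (−4.72 to −2.01) kept direction and side of the threshold under all alternatives run. The number of domains was 2318 at 5000 bp and 263 at 12000 bp. The D surplus in percent of peaks was 0.84 with scaffolds, no longer past the threshold, and 0.587 to 0.972 with pairs or replicates left out. The D minus A difference in domains with H3K4me3 reversed to 0.704 when only H3K4me3 replicate 1 peaks found in the second narrow list were counted, and ranged from −5.05 to −1.18 with pairs or replicates left out. It passed the threshold (adjusted p = 0.0479, exact permutation) only with wide peaks of the second broad list in place of replicate 1. The difference in distance to the next domain, in kb, was −59.15 at 5000 bp and −216.2 with peaks under 1 kb apart merged, both past the threshold, −4976 at 12000 bp (exact permutation, adjusted p = 0.535), and −206.2 to −70.4 with pairs or replicates left out. Of the runs that left out a single pair, it passed only in that without pair 7. It also passed with wide peaks of the second broad list in place of replicate 1 (−206.2, adjusted p = 0.0176, exact permutation).

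The inside minus flank difference of H3K4me3 replicate 1 reversed to −0.859 for peaks found in the second narrow list. The H3K4me3 replicate 1 flank difference was −0.688 at 12000 bp, −0.408 with peaks of at least 500 bp and 0.229 with 20 kb flanks, none past the threshold. The second-list flank difference was −0.406 at 12000 bp, −0.178 at 90% overlap, −0.11 merged, −0.11 with 20 kb flanks, −0.176 with peaks of at least 500 bp and 0.0539 with 2 kb flanks, none past it, and −0.357 to 0.00075 with pairs or replicates left out, reversed (0.00075) without replicate 1. The share of domains with H3K4me3 replicate 1 was 69.4% at 5000 bp, 82.5% at 12000 bp, 38.4% with peaks of at least 500 bp and 3.19% with peaks found in the second narrow list. For the second narrow list it was 4.99% merged and 0.683% with peaks of at least 500 bp. Apart from alternatives that change the peaks counted, the causes were not tested.

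A stricter peak score could not be tried, as the lists hold none, and scaffolds were not added where lengths or ends were needed. No paired analysis was possible because the labels number only the second libraries (number 1 was given here to the others) and each list is 1 library, so no test ran over libraries. The pairs of the sign-flip tests are A and D chromosomes.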
